A study of Mus musculus with 2 samples.

Results

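The circadian clock set held 10 genes: the activators Arntl and Clock, the repressors Per1, Per2, Per3, Cry1 and Cry2, the nuclear receptors Nr1d1 and Nr1d2, and the output factor Dbp. They were chosen by name, and all 10 were found among the 21911 protein-coding genes of the GENCODE M21 annotation on the mouse build mm10. Around each gene, the body plus 10 kb to each side was taken as its window. Every peak and footprint that overlapped a window was used, which came to 45 of 29700 peaks in replicate 1 and 72 of 66512 in replicate 2. The data were DNase-seq, in which an enzyme cuts DNA where chromatin is open, a peak marks a stretch of dense cutting, and a footprint marks a short run of bases protected from cutting. Footprints inside and outside peaks were used: 135 of the 207 in the windows lay in a peak in replicate 1 and 226 of 306 in replicate 2. Both libraries were frontal cortex of 36-day-old females of the F1 hybrid strain B6CASTF1/J (a C57BL/6 by CAST cross), with no treatment given in the labels, and formed 1 group as biological replicates 1 and 2. The same donor label stood on both, with separate tissue sample records, which leaves unstated whether 2 animals were sampled. The hour of tissue collection is likewise not stated in the labels. Both parental alleles were counted together, and the sequences below are those of the C57BL/6 reference. With 1 group of 2 libraries, no test between conditions was possible, and the values below describe these libraries.

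The mammalian clock is a feedback loop of transcription. Arntl (also called Bmal1) and Clock bind as a pair to E-boxes in the DNA of Per and Cry genes, and the Per and Cry proteins return to the nucleus and block that pair. In a second loop, the pair drives Nr1d1 and Nr1d2 (Rev-erb alpha and beta), which repress Arntl through RORE sites, while Dbp, another target of the pair, activates genes that carry D-boxes, the Per genes among them. Most cells of the body, including those of the cortex, run this loop, and many of its genes are transcribed at different rates over the day.

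The elements named for this loop were searched as exact letters on both strands of the reference sequence: the E-box CACGTG, the related E-prime box CACGTT, the RORE, the D-box TTANGTAA and the cAMP response element TGACGTCA, abbreviated CRE. The E-prime box reads AACGTG on the other strand, and since it differs from the E-box at 1 letter, no match counts as both. The stretches shown first are those of Nr1d1, since its listed body share (described below) differed most between the libraries among the 10 genes, and of its paralog Nr1d2. Each is read on the strand of the gene, on GRCm38/mm10 from the RefSeq reference genome, with the matches in capitals.
Nr1d1 promoter (chr11:98775334-98775483, minus strand): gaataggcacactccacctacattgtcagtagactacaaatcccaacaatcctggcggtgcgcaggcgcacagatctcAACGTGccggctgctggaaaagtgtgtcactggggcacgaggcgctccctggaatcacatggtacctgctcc
Nr1d1 first intron (chr11:98774069-98774168, minus strand): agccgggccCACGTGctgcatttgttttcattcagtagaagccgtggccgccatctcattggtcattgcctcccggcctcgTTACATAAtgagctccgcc
Nr1d1, further into the intron (chr11:98773849-98773893, minus strand): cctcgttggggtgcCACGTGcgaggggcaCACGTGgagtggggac
Nr1d1 upstream element (chr11:98783529-98783563, minus strand): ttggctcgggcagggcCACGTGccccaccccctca
Nr1d2 second promoter peak (chr14:18238518-18238687, minus strand): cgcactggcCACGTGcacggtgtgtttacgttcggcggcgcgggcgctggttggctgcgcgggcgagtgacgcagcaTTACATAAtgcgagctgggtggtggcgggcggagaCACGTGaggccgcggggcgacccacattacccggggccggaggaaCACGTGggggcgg

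At Nr1d1 the promoter held an E-prime box, the first intron E-boxes and a D-box, and the upstream element an E-box. Nr1d2 carried 3 E-boxes and a D-box within 170 bases of its second promoter peak. All 5 stretches lay at least partly in peaks of replicate 1, and 4 of them in peaks of replicate 2. The exception was the further intron stretch of Nr1d1, which was outside the narrower replicate 2 peak.

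The repressors, the activators and Dbp are shown next for elements that lay at a peak of at least 1 library. The Arntl RORE, which was in no peak, is shown too. Stretches inside an untranslated region were kept to a single site.
Per1 promoter (chr11:69094872-69095081, plus strand): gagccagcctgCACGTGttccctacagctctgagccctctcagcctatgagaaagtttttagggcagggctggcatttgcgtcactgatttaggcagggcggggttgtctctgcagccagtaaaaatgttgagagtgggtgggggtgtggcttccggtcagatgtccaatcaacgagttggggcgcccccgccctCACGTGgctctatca
Per1 inner start site (chr11:69098772-69098801, plus strand): gcacccaagtcCACGTGcagggatgtgtgt
Per1 intron (chr11:69097192-69097221, plus strand): gcctccgcttTGACGTCAcctccctctcct
Per2 promoter (chr1:91459325-91459524, minus strand): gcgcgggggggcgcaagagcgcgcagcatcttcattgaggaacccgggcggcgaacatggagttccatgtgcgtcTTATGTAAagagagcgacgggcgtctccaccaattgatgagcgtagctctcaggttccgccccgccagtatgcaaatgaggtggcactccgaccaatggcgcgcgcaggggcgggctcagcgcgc
Per2 start (chr1:91459305-91459329, minus strand): cgcgcgcggtCACGTTttccactat
Per3 promoter (chr4:151044806-151044885, minus strand): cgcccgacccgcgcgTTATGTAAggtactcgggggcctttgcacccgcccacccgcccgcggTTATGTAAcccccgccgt
Cry1 promoter (chr10:85185100-85185154, minus strand): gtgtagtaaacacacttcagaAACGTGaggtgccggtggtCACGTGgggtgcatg
Cry2 promoter (chr2:92434219-92434248, minus strand): cacacatggtgggAACGTGagggggcggag
Cry2 intron (chr2:92423859-92423938, minus strand): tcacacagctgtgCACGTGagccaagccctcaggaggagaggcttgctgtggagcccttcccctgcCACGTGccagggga
Clock intron (chr5:76303988-76304037, minus strand): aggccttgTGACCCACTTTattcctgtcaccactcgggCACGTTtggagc
Arntl start (chr7:113207528-113207557, plus strand): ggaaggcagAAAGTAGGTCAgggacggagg
Dbp promoter (chr7:45704883-45704917, plus strand): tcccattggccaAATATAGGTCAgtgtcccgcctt
Dbp inner start site (chr7:45707698-45707847, plus strand): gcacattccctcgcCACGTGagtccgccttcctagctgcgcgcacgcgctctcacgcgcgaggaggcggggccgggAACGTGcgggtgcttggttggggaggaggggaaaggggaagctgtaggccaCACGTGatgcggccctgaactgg

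The capitals mark E-boxes at Per1, Cry1, Cry2 and Dbp, E-prime boxes at Per2, Cry1, Cry2, Clock and Dbp, D-boxes at Per2 and Per3, a CRE in the Per1 intron, and ROREs at Clock, Arntl and Dbp. The letters of a match show sequence, not binding. The Arntl RORE, 77 bp inside the gene, was in no peak of either library: it lay 16 bp beyond the edge of the nearest peak and touched no footprint.

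All 10 clock genes had a peak at a promoter in both libraries, against 50.8% of protein-coding genes (51.0% in replicate 1 and 60.0% in replicate 2 taken alone), where a promoter was 500 bp to each side of any annotated start site of the gene. Each promoter is given by its highest peak, whose signal is the authors' read-depth normalized density. Every clock gene's promoter signal was higher in replicate 2, as it was for 99.1% of the 11136 genes with a promoter peak in both libraries. The direction is therefore one that nearly all genes shared. In bulk tissue, fewer cells with an open site and less opening per cell cannot be told apart. Per1 and Nr1d1 held the first and second places in replicate 1, and the same genes in the reverse order led in replicate 2. Clock was lowest and Arntl next lowest in both.

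**Figure D1:**
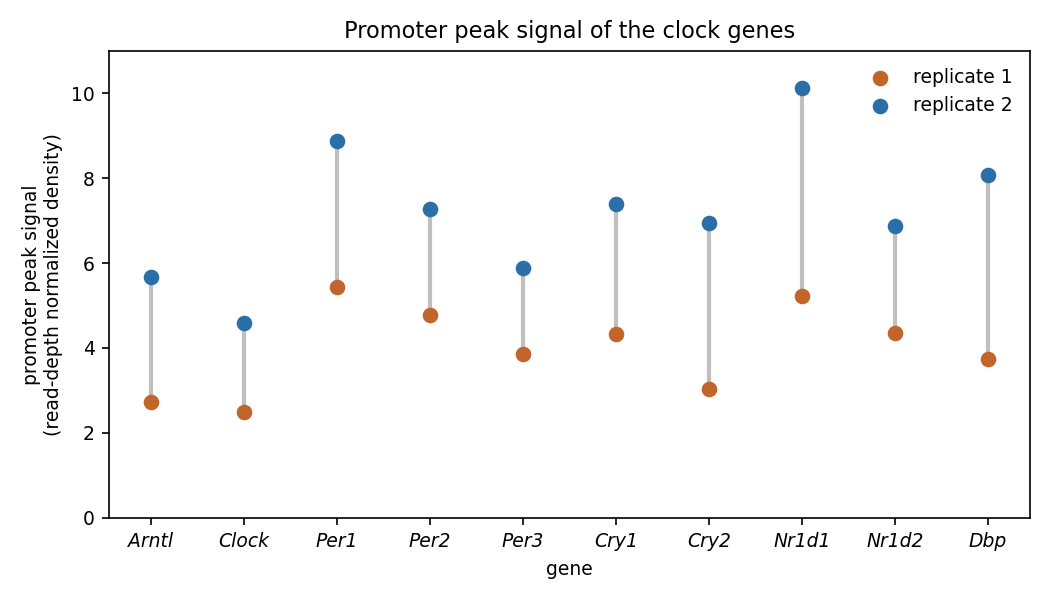
Highest promoter peak signal (read-depth normalized density, no further unit) of each clock gene in replicate 1 (orange) and replicate 2 (blue); the grey line joins the 2 libraries. Every blue point is above its orange point, Clock is lowest in both libraries, and Nr1d1 reaches 10.1 in replicate 2.

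Among the activators, the Arntl promoter (gene ENSMUSG00000055116.8, chr7:113207465-113314126, plus strand) had signals of 2.72 and 5.68, in replicate 1 and replicate 2 in that order, a log2 ratio of 1.06. Clock (ENSMUSG00000029238.11, chr5:76209868-76304792, minus strand), which encodes the partner of Arntl and an acetyltransferase, had 2.50 and 4.59, a log2 ratio of 0.88. Promoters were ranked among the genes with a promoter peak in the library, 11173 in replicate 1 and 13150 in replicate 2. These values put Arntl above 65.2% of such promoters in replicate 1 and 80.1% in replicate 2, and Clock above 57.6% and 66.7%.

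The repressors stood higher. Per1 (ENSMUSG00000020893.17, chr11:69095217-69109960, plus strand), a Period gene that also responds acutely to cAMP signalling, had 5.44 and 8.88, above 98.8% and 98.1% of promoters with a peak. Per2 (ENSMUSG00000055866.9, chr1:91415982-91459324, minus strand), its paralog, had 4.78 and 7.26. Per3 (ENSMUSG00000028957.12, chr4:151003652-151044665, minus strand), the third Period gene, had 3.85 and 5.89. Within the Period genes the order was the same in both libraries, and their log2 ratios were close together at 0.71, 0.60 and 0.61. Cry1 (ENSMUSG00000020038.10, chr10:85131700-85185064, minus strand), which encodes a cryptochrome repressor, had 4.32 and 7.40. Cry2 (ENSMUSG00000068742.11, chr2:92403646-92434043, minus strand), the other cryptochrome, had 3.03 and 6.95, a log2 ratio of 1.20 that exceeded those of 93.9% of genes. The cryptochromes therefore lay apart from each other in replicate 1 and near each other in replicate 2.

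Of the nuclear receptors, Nr1d1 (ENSMUSG00000020889.11, chr11:98767932-98775333, minus strand) had 5.23 and 10.1, and Nr1d2 (ENSMUSG00000021775.11, chr14:18204054-18239127, minus strand) had 4.35 and 6.86. The output gene Dbp (ENSMUSG00000059824.12, chr7:45705088-45710203, plus strand), which encodes a PAR bZIP activator, had 3.75 and 8.08. Its log2 ratio was 1.11, against 0.95 for Nr1d1 and 0.66 for Nr1d2. Over the 10 genes the median log2 ratio was 0.83, with a range of 0.60 to 1.20, and over all 11136 genes it was 0.79, with quartiles of 0.61 and 0.97. All 10 clock promoters lay between the 5th and the 95th percentile of all genes, 0.30 and 1.22.

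**Figure D2:**
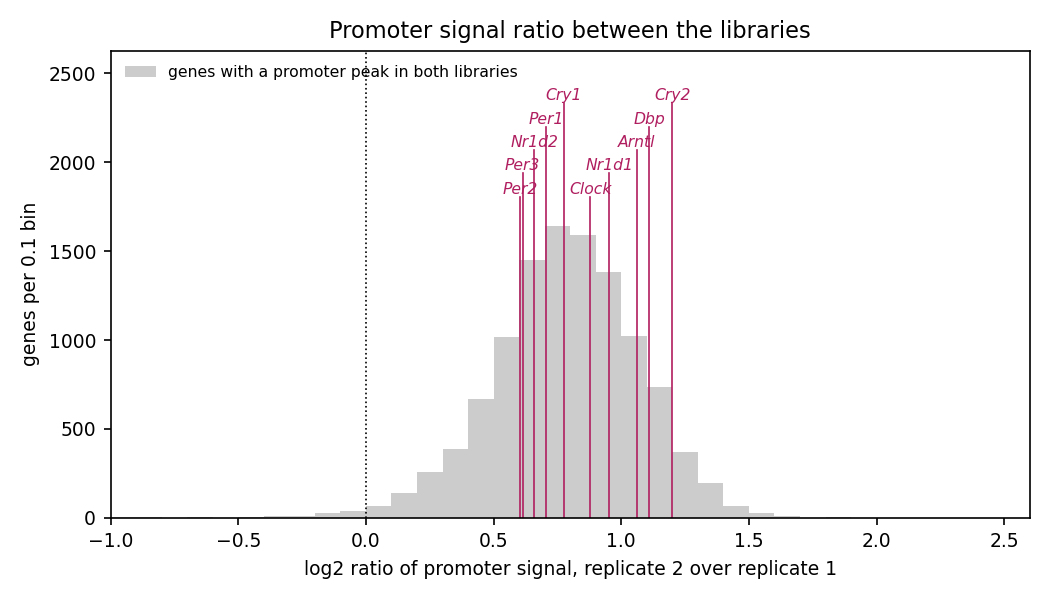
Histogram of the log2 ratio of promoter signal, replicate 2 over replicate 1, over the genes with a promoter peak in both libraries (grey, genes per bin of 0.1; 3 genes lie outside the plotted range), with 1 line for each clock gene. The lines run from 0.60 for Per2 to 1.20 for Cry2 and straddle the median of 0.79.

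With promoters included, peak counts in the windows parted between the libraries, and not in 1 direction. The windows held 45 and 72 peaks in the main lists. With lists of equal length, where replicate 2 was cut to its strongest peaks, they held 45 and 48. In the main lists, replicate 2 had more peaks than replicate 1 in the windows of 7 clock genes, against 53.9% of gene windows. Cry2 had 5 peaks in each library and Nr1d2 had 2 in each. Nr1d1 had more in replicate 1, which held for 4.44% of gene windows and for 7.44% of those of genes with a promoter peak in both libraries. It had 14 peaks in replicate 1 and 5 in replicate 2, but 3 and 4 among the stronger 50% of each list, and 29 and 31 with 50 kb to each side. The reverse extreme was Per1, with 5 and 19, but 5 and 10 among the stronger 50% and also 5 and 10 with lists of equal length. Of the 45 clock peaks of replicate 1, 33 shared 1 bp or more with a peak of replicate 2 (73.3%, against 92.5% for the whole replicate 1 list), and 10 of the 12 that did not were at Nr1d1. Of the 72 clock peaks of replicate 2, 32 had a partner (44.4%, against 40.7% of all).

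**Figure D3:**
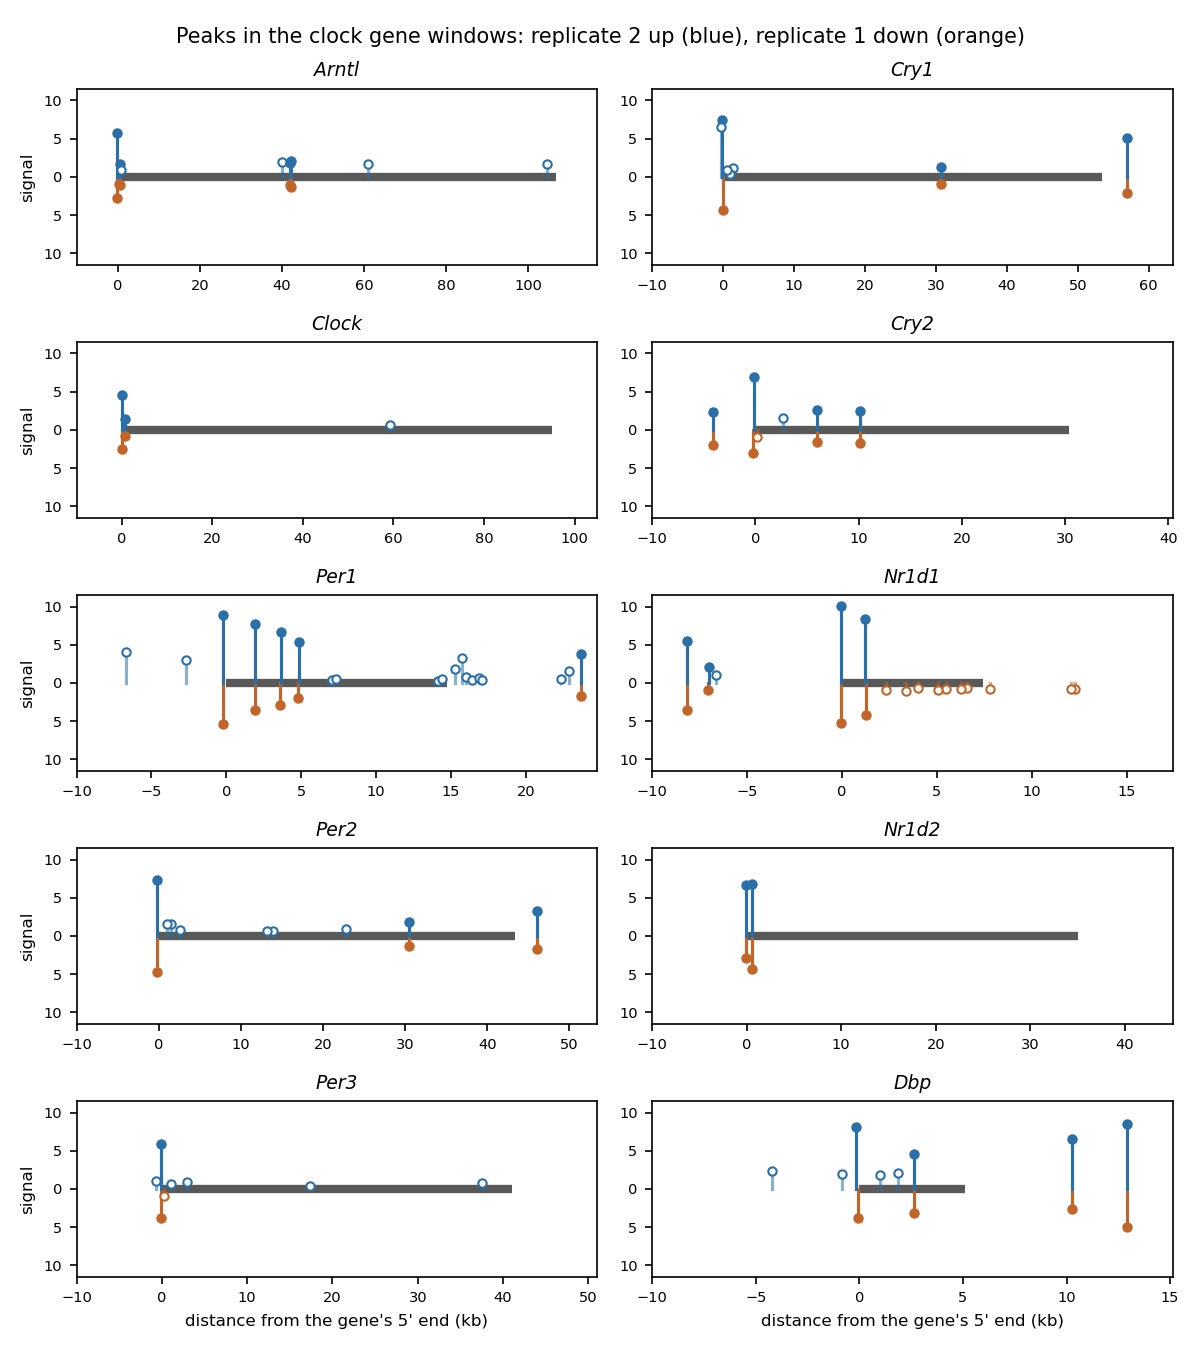
Peaks in the window of each clock gene by distance of the peak midpoint from the gene's 5′ end (kb, in the direction of transcription); height is the peak signal, replicate 2 upward in blue and replicate 1 downward in orange, filled where the other library has an overlapping peak, open where it has none; the grey bar is the gene body. Open orange points run along Nr1d1 and open blue points gather at the end of Per1.

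Nr1d1 encodes a heme-binding repressor of Arntl. Its 4 shared peaks followed the library-wide direction. The promoter values, 5.23 and 10.1, are given above. The first-intron peak, centred 1282 bp inside the gene in replicate 1, had signals of 4.26 and 8.36. The upstream peaks, at -8178 and -7041 bp from the 5′ end, had 3.51 and 5.43, and 0.931 and 2.10. All 4 were stronger in replicate 2.

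The other 10 Nr1d1 peaks of replicate 1 had no partner. They were centred from 2320 to 12279 bp past the 5′ end, 7 in the gene body and 3 downstream, over both exons and introns. Their signals ran from 0.648 to 1.08 with a median of 0.836, and 6.20% to 35.2% of the replicate 1 list had lower signals, so they were weak but not the weakest of the list. At least 10 such peaks were found in the windows of 0.0411% of genes, which was 9 genes. Ranked by the excess of unpartnered peaks in replicate 1 over replicate 2, Nr1d1 had rank 5, behind Leng8, Cdc42ep5, Leng9 and Ttyh1, whose windows overlap at 1 locus on chromosome 7.

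The same contrast appeared in the authors' table of cleavage rates, which lists the bases with a false discovery rate (FDR) of 0.05 or less. Of the Nr1d1 body, 70.7% was listed in replicate 1 (5236 bp) and 12.7% in replicate 2 (938 bp). Replicate 1 listed at least 50% of the body for 0.726% of genes. A larger listed share in replicate 1 was found for 3.16% of genes, for 4.49% of those with a promoter peak in both libraries, and for 1 of the 10 clock genes, Nr1d1. By the size of the difference Nr1d1 had rank 2 of 21911 genes, behind Leng9, with 98.9% and 37.3%. At an FDR of 0.001 or less the Nr1d1 share was 43.6% in replicate 1, which was 34.6 percentage points above replicate 2. The upstream 10 kb was nearly level at 20.5% and 20.3%, and the downstream 10 kb had 7.57% and 0%. The difference was thus within the gene and past it, where a neighbouring gene, Thra, lies, and not upstream of it.

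Little of the unpartnered Nr1d1 peaks was listed in replicate 2: 6.37% of their bases were listed there and 9 of the 10 peaks held no listed base, against 12.8% of all 2231 unpartnered replicate 1 peaks. Thra, which encodes thyroid hormone receptor alpha and runs on the opposite strand (chr11:98740638-98769006), overlaps the last 1075 bp of Nr1d1. The downstream 10 kb of Nr1d1 lies wholly inside Thra, and so do the midpoints of the unpartnered peaks found there. In the 6327 bp of the Nr1d1 body outside Thra the listed shares were 72.0% and 14.8%, with 8 and 2 peaks. The body difference was thus nearly as large without the overlap. DNase cutting carries no strand, and signal inside the overlap cannot be assigned to either gene.

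**Figure D4:**
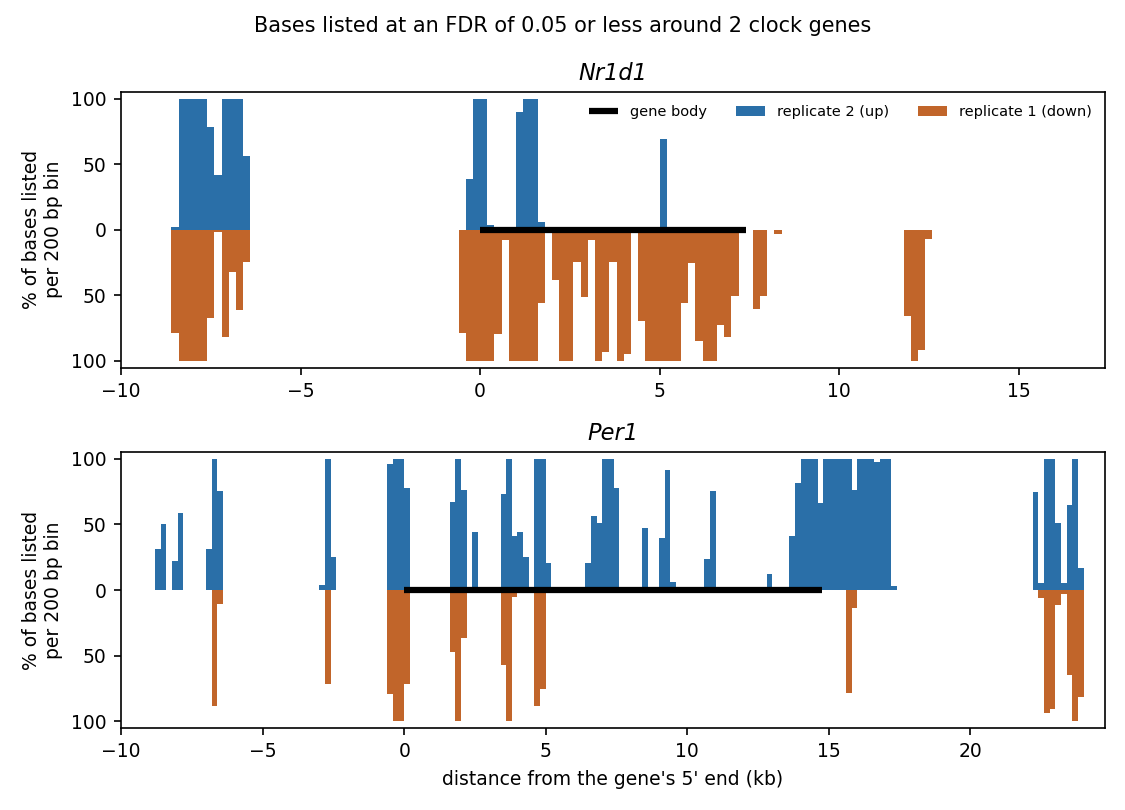
Percent of bases listed at an FDR of 0.05 or less in bins of 200 bp around Nr1d1 and Per1, by distance from the gene's 5′ end (kb); replicate 2 is drawn upward in blue, replicate 1 downward in orange, and the black bar is the gene body. Replicate 1 is listed along most of Nr1d1, while replicate 2 is listed almost without a gap around the end of Per1.

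Per1 showed the opposite contrast. Its promoter, its intron peak 1928 bp inside the gene and its peaks at inner start sites 3615 and 4817 bp inside were shared by both libraries. The intron peak had signals of 3.58 and 7.67, and the inner ones 2.93 and 6.70, and 2.04 and 5.38. A shared peak 23665 bp from the 5′ end had 1.67 and 3.80. Replicate 1 had no further peak in the window. Replicate 2 had 14 more, with signals of 0.311 to 4.03 and a median of 0.612, and at least 14 such peaks were found in 0.703% of gene windows. The highest of them was the promoter of Vamp2, the synaptobrevin gene upstream of Per1, at 4.03. The next were a peak 15724 bp from the 5′ end, just past the gene, at 3.30, and one upstream, at -2676 bp, at 3.01. These strongest ones were not closed in replicate 1. In the 200 bp bins that hold their midpoints, 88%, 78.5% and 71.5% of bases were listed there, in the order named. Each also held a replicate 1 footprint that overlapped one of replicate 2.

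In Per1 the listed share of the body was 7.88% in replicate 1 and 27.6% in replicate 2, rank 404 of all genes for the excess in replicate 2. Downstream 10 kb the shares were 10.9% and 34.5%. At the gene's end the libraries differed further. From 1 kb before to 2 kb after the 3′ end of Per1, 6.13% of bases were listed in replicate 1 and 94.8% in replicate 2. That window was chosen after the profile had been seen, and it is a description. Replicate 2 listed at least 50% of the same window for 0.803% of genes and replicate 1 for 0.151%, and the difference at Per1 had rank 1 of 21911 genes. For Nr1d1 the window had 27.8% and 0%, rank 11 for the excess in replicate 1. The other 8 clock genes had at most 9.33% in either library. Of the 14 unpartnered Per1 peaks, 10 held no base listed in replicate 1, against 49.5% of all unpartnered replicate 2 peaks.

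Per2 and Per3 leaned the same way as Per1 with smaller values. Per2 had 3 peaks in replicate 1 and 9 in replicate 2, and 6 of the 9 had no partner. Those 6 lay inside the gene, from 993 to 22822 bp past its 5′ end, at signals of 0.670 to 1.58. Its listed body share was 1.83% and 9.08%. The peak shared by both inside the gene, in an intron 30513 bp from the 5′ end, had 1.37 and 1.84. The remaining shared peak was the promoter of Hes6, a bHLH repressor gene next to Per2, with 1.65 and 3.20. Per3, which lies within the annotated span of Camta1, had 2 peaks and 6. The promoter was the shared one, and the unpartnered peaks of replicate 2 had signals of 0.437 to 0.990. The highest of these was upstream, at -726 bp. The listed body share was 1.12% and 4.61%.

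Cry1 had 3 peaks and 7, all 3 of them shared: the promoter, an intron peak at 30678 bp with 0.942 and 1.35, and the promoter of Mterf2 with 2.05 and 5.08. In replicate 2 the list held 2 rows nested in each other at the Cry1 promoter, at 7.40 and 6.56, and the second counted as unpartnered. Cry2 had 5 peaks in each library, of which 4 were shared. The unpartnered ones lay 154 bp inside, in a coding exon, in replicate 1 (0.966) and 2687 bp inside, in an intron, in replicate 2 (1.58). Its upstream peak at -4134 bp had 1.97 and 2.36, the lowest log2 ratio of the 33 shared clock peaks at 0.26. Its intron peak at 5977 bp, where the annotation also holds D930015M05Rik, had 1.59 and 2.66. The one at 10115 bp, which holds an E-box, had 1.66 and 2.46. The cryptochrome bodies were listed over 2.43% and 4.43% for Cry1 and 3.29% and 4.27% for Cry2.

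Arntl, 107 kb long, had 5 peaks and 8. Beside its promoter, the peaks lay in introns: the highest was 42226 bp inside, with 1.27 and 2.05, and 4 of replicate 2 had no partner. Clock, 94.9 kb long, had 2 peaks and 3. Its shared intron peak, 806 bp inside, had 0.825 and 1.48 and holds the RORE and the E-prime box shown above. The replicate 2 peak without a partner, 59128 bp inside, had 0.699. The listed body shares were 1.82% and 4.02% for Arntl and 1.09% and 2.07% for Clock.

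Nr1d2, the paralog of Nr1d1, did not show the contrast of Nr1d1. Both libraries had the same 2 peaks, at the 5′ end with 2.89 and 6.67 and 546 bp inside with 4.35 and 6.86, and no others in the window. The listed body share was 3.12% and 3.16%. Which of the 2 peaks was stronger was clear in replicate 1, while in replicate 2 they were nearly equal. Dbp had 4 peaks and 8, with a listed body share of 15.7% and 36.3%, rank 376 for the excess in replicate 2. Its promoter and an inner start site 2642 bp inside, at 3.12 and 4.61, were shared. The other shared peaks were at start sites of Rpl18 and Sphk2 downstream, with 2.57 and 6.58, and 4.96 and 8.51. Among the 4 peaks of replicate 2 alone were the promoter of Car11, at 2.33, and a peak at -853 bp from the Dbp start, at 1.92.

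**Figure D5:**
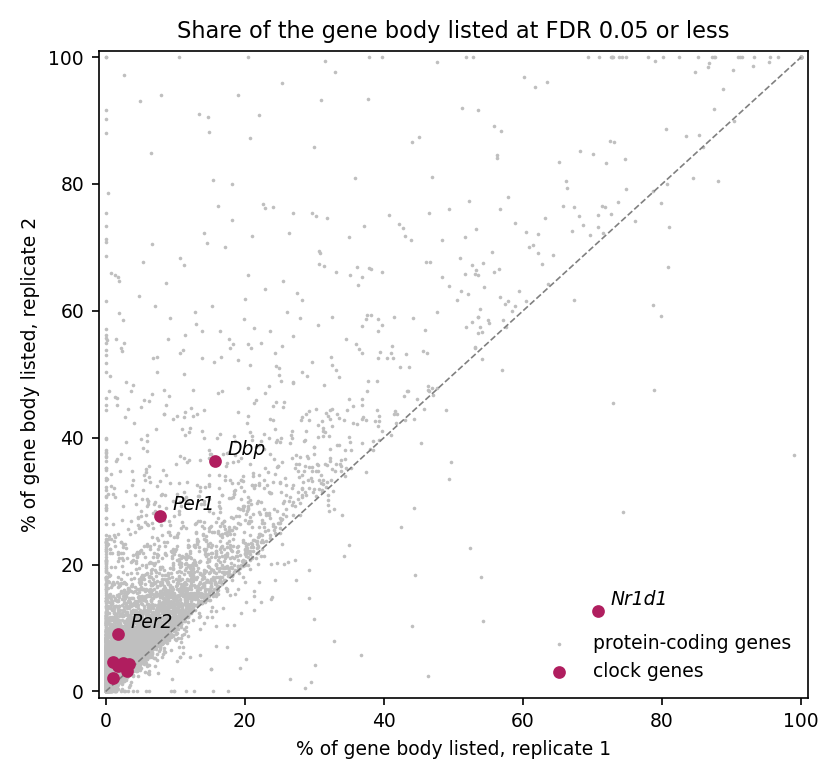
Percent of each gene body listed at an FDR of 0.05 or less in replicate 1 (x axis) and replicate 2 (y axis) for protein-coding genes (grey) and the clock genes (magenta); the dashed line marks equal shares. Nr1d1 lies far below the line at 70.7% and 12.7%, and Per1, Per2 and Dbp lie above it.

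Over all protein-coding genes the median listed share was 0.870% in replicate 1 and 2.25% in replicate 2. The excess at Per1, Per2, Per3 and Dbp was thus in the direction of the whole library, and that at Nr1d1 against it. Replicate 2 held 2.24 times the peaks, 2.22 times the footprints and 2.26 times the listed bases of replicate 1 (41.2 against 18.2 Mb), and 96.5% of the 27469 shared peaks had a higher signal there. The part of these library-wide differences in the clock gene values was not tested. Of 8 cortex markers, 3 had a promoter peak in replicate 1 (Tbr1, Neurod6 and Camk2a) and 6 in replicate 2. The shares over all protein-coding genes were 51.0% in replicate 1 and 60.0% in replicate 2. The defining markers Slc17a7 and Gad1 had none in either. Of 6 markers of glia and vessels, 2 and 3 had one. Mog, Cx3cr1 and Cldn5 had none in either. Of 7 markers of other organs or brain regions, 0 and 1 had one (Alb, in replicate 2).

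Over the 33 shared clock peaks the log2 ratio of replicate 2 over replicate 1 had a median of 0.81 (1.76-fold), from 0.26 to 1.40, and was above 0 in all 33. The 16 pairs at the genes' own promoters had a median of 0.85, the 13 away from any start site 0.69, and the 4 at promoters of neighbours 1.13. The median over all shared peaks of the libraries was 0.69, and over those within 500 bp of any start site 0.76. The highest ratio of a clock gene was at the Per1 peak 4817 bp inside the gene.

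Footprints were counted in the same windows. These held 207 in replicate 1 and 306 in replicate 2. Nr1d1 had 56 and 20, and Cry1 had 21 and 19, and a larger number in replicate 1 was found for 6.18% of gene windows. Without Nr1d1 the totals were 151 and 286. Per1 had 35 and 67, Dbp 23 and 49, Arntl 16 and 40, Cry2 13 and 28, Per2 12 and 28, Per3 7 and 20, Nr1d2 12 and 18, and Clock 12 and 17. In the Nr1d1 body there were 35 and 10. Of all footprints in the windows, 116 of replicate 1 overlapped one of replicate 2 (56.0%, against 54.5% of all footprints), and 114 of replicate 2 overlapped one of replicate 1 (37.3%, against 23.5%). The share held in common was lowest in replicate 1 at Nr1d1, 17 of 56, and highest at Per3, 6 of 7.

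The E-box was the commonest of the 5 clock elements in the peaks of these genes, with 16 matches at 6 genes: 5 at Nr1d1, 3 each at Per1 and Nr1d2, 2 each at Cry2 and Dbp, and 1 at Cry1. It was also the commonest of the 5 in all peaks, with 2223 matches in replicate 1 and 3971 in replicate 2. Windows of 200 bp at peak midpoints held one in 8 of 45 clock peaks of replicate 1, against 6.02% of all peaks, and in 6 of 72 of replicate 2, against 4.93%. Of 15 matches in replicate 1 peaks, 9 touched a footprint of that library, against 31.5% of all E-boxes in its peaks. Of 13 in replicate 2 peaks, 12 did, against 38.2%. No test was made of these shares, and the peaks of 1 gene share their surroundings.

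By gene, both libraries had a footprint that held the Per1 E-box at -147 bp, the Cry1 E-box at -48 bp and the Nr1d1 E-box at -8212 bp, counted from the gene's 5′ end. The Per1 E-boxes at -331 and at the inner start site, +3569, were inside a footprint in replicate 2 and touched none in replicate 1. Both Cry2 intron E-boxes and both Dbp ones were inside a footprint in replicate 2, and those of Dbp touched one in replicate 1 too. In the Nr1d1 intron, the E-boxes at +1176 and +1456 were inside a footprint in replicate 1 and touched one in replicate 2, and the one at +1471 touched none in either. The Nr1d1 E-box at +2292 lay in a peak that replicate 1 alone had, with no footprint on it. All 3 E-boxes of Nr1d2 touched a footprint of at least 1 library.

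E-prime boxes numbered 10, at 6 genes. The 200 bp midpoint windows held one in 5 of 45 clock peaks of replicate 1 (all peaks 4.02%) and 5 of 72 of replicate 2 (3.81%). Of the matches, 2 of 7 touched a footprint in replicate 1 peaks (all peaks 17.0%) and 1 of 9 in replicate 2 peaks (17.8%). The Cry2 promoter match at -190 bp was inside a footprint in both libraries. The others at Cry1, Per2 and Nr1d1 promoters touched none. D-boxes numbered 7: 4 at Per3, and 1 each at Per2, Nr1d1 and Nr1d2. Midpoint windows held a D-box in 4 of 45 clock peaks of replicate 1 (all peaks 1.05%) and 5 of 72 of replicate 2 (1.38%). In replicate 2, 5 of 7 D-boxes touched a footprint (all peaks 32.1%), and in replicate 1, 2 of 5 did (22.9%). Those of the Per2 promoter, at -122 bp, and the Nr1d1 intron, at +1249 bp, touched one in both. At Per3, the promoter matches at -155 and -202 bp touched one in replicate 2 alone.

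The ROREs in peaks were at Clock, +768 bp, with no footprint, and at Dbp, -188 bp. The Dbp match touched a footprint at its edge in both libraries but was inside none, and the peak of replicate 1 began just past it. The CREs were in the Per1 intron peak, touching a footprint in replicate 2, and at the Rpl18 start site in the Dbp window, inside a footprint in both. Of all CREs in peaks, 72.8% touched a footprint in replicate 1 and 81.8% in replicate 2. Midpoint windows held a RORE in 1 of 45 clock peaks of replicate 1 (all peaks 0.209%) and 2 of 72 of replicate 2 (0.310%). They held a CRE in 2 of 45 (1.71%) and 2 of 72 (1.03%). Over the 5 elements, 37 matches were found at 9 of the 10 genes, and 24 touched a footprint of either library. Arntl had none in its peaks. GC boxes (GGGCGG), which many promoters carry, occurred 66 times and at all 10 genes. Midpoint windows held one in 18 of 45 clock peaks of replicate 1 (all peaks 34.0%) and 28 of 72 of replicate 2 (22.6%). Of the GC boxes in peaks of the library, 25 of 48 touched a footprint in replicate 1 (all peaks 38.9%) and 35 of 62 in replicate 2 (42.8%). These shares were not tested.

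RefSeq promoters, taken from 250 bases before to 50 after a start site, were at hand for 9 of the 10 genes (13 promoters on GRCm38). Per2 was the missing one. For Per1 only inner start sites were at hand, so its outer promoter, with the E-box at -147 bp, was not covered. Of all 32851 RefSeq promoters of that length, 7.15% held an E-box, 4.68% an E-prime box, 2.32% a D-box and 0.384% a RORE. Among the clock genes, an E-box was present at Cry1 and at the inner Per1 start, an E-prime box at Cry1, Cry2 and Nr1d1, a D-box at Per3 and a RORE at Arntl. Most clock E-boxes in peaks therefore lay outside these windows, among them those of Nr1d1, Nr1d2, Cry2 and Dbp.

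Of another 20 clock genes, named from a list of further regulators, 18 had a promoter peak in both libraries, against 50.8% of protein-coding genes. Npas2, a Clock paralog named here after its value was seen, had one in replicate 2 alone, at 1.51, as 9.19% of genes did. The strongest promoters by the mean of the libraries were Btrc, a ubiquitin ligase gene, with 5.25 and 12.1, Tef, a paralog of Dbp, with 4.25 and 11.1, and Usp2, a deubiquitinase gene, with 5.37 and 9.68. Replicate 2 had more peaks at 15 of these genes (53.9% of all gene windows), replicate 1 at 2 (4.44%) and neither at 3. A larger listed body share in replicate 1 was found for 1 of the 20, Tef, with 10.8% and 10.7%, against 3.16% of all genes. The median log2 promoter ratio was 0.90, from 0.47 to 1.38.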

How the data were processed

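DNase-seq peaks, footprints and cleavage tables of 2 libraries were used, each made by the authors from that library's own filtered alignments to mm10, per the text listing deposited with them. Replicates were not pooled. For the aligner, the callers and their thresholds, no name or setting is given in the sources used here. Peak signal, as deposited, is a density that the authors scaled for read depth. In the deposited cleavage table the p-value column gives FDRs up to 0.05, and in the footprint list that column is 0.01 throughout. Of the 2 peak lists per library, the one with fewer peaks was used.

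Gene windows, overlaps of at least 1 bp, listed bases and exact motif matches were computed with python 3.11.15, numpy 2.4.6, pandas 2.3.3 and pysam 0.24.0, and tested on simulated data. Distances run from the gene's outermost 5′ end to a midpoint. All 10 members were named, with their highest peak away from start sites, neighbours with a start site at a peak, and, of the 20 further genes, those with no promoter peak and the 3 strongest; 1 gene under this rule is not reported here. Members and lists were chosen with earlier results of these data known. Alternatives changed the peak list, window, overlap and promoter width, and left out each library. Depth per library is unknown, so no interval is given.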

Additional observations from a re-analysis of the deposited data

How the results depend on the processing

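All 10 clock genes had a promoter peak in both libraries under every list and promoter width run. The count was also 10 when either replicate was left out. Leaving out a replicate or widening the promoter could not lower it, so those runs are no check. Of 81 alternatives, 2 reversed a direction, both for the Nr1d1 peak count. They are given below, with the counts that changed by more than 1.5 times. The median log2 ratio of shared peaks ran from 0.71 to 0.92. With the longer peak list, replicate 1 had 72 peaks and 51 were shared. With the stronger 50% of peaks, replicate 1 had 26. Lists of equal length gave 45 peaks in replicate 1 and 48 in replicate 2, against 45 and 72 in the main lists. With 50 kb to each side, the peaks were 91 and 157, of which 73 were shared, the footprints 378 and 646, of which 225 were shared, and the element matches 56. In gene bodies alone the footprints were 92 and 147, with 44 shared. Footprints within peaks numbered 135 in replicate 1. Of all 207 footprints of replicate 1, 64 were shared when at least 50% of both had to overlap. The settings for the 2 genes that follow were chosen after seeing the data. The unpartnered Nr1d1 peaks of replicate 1 were 10 in the main list, 14 in the longer list, 0 among the stronger 50% and 14 with 50 kb to each side. Nr1d1 had 9 more peaks in replicate 1 than in replicate 2, and the difference turned to -1 among the stronger 50% (3 and 4 peaks) and -2 with 50 kb (29 and 31 peaks, 14 and 17 of them unpartnered). The unpartnered Per1 peaks of replicate 2 were 14 in the main list, 5 among the stronger 50% and 5 with lists of equal length. They were 4 in the gene body and 24 with 50 kb. The Per1 peak difference was -14 in the main list, -5 among the stronger 50% and -5 with lists of equal length. It was -4 in the gene body and -22 with 50 kb. The Per1 difference thus kept its direction but was smaller with shorter lists. The Nr1d1 peak contrast thus rests on the weaker 50% of the list and on the gene with its near flanks. The listed share of the Nr1d1 body was 58.1 percentage points higher in replicate 1, and 34.6 at an FDR of 0.001. With 2 libraries and unknown depth, no spread between animals could be estimated, and no paired analysis was possible because the single group gives nothing to pair.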
